A study of Mus musculus with 10 samples.

Results

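Parthenogenetic induced pluripotent stem cells, labelled piPS-2F, were compared with female embryonic stem cells, labelled fESC. The piPS-2F cells were reprogrammed from parthenogenetic neural stem cells that overexpressed Oct4 and Klf4. The fESC carry the label OG2 and come from an embryo with a mother and a father. The comparison used 4 of the 10 arrays of the series, 2 for each group, chosen by their column names. It kept 11310 of 25697 probes, those detected (detection p under 0.01) on both arrays of at least 1 of the groups. The other arrays hold parthenogenetic embryonic stem cells that were SSEA-1 sorted (pESC-B; SSEA-1 is a surface antigen of pluripotent cells), parthenogenetic neural stem cells (pNSC) and female neural stem cells (fNSC), and values of pESC-B and pNSC are given beside those of the 4 arrays. The piPS-2F and pESC-B share a parthenogenetic origin, and the fESC do not. A label of piPS-2F replicate 2 names Klf5 in place of Klf4, and the fESC columns are titled fESC-B and headed ESC-F. The series speaks of 5 samples in duplicate, so each group may be 1 culture of 1 line and every p-value measures the spread between duplicate arrays only. No label says how Oct4 and Klf4 were delivered, and whether the probes also read introduced copies was not tested.

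A parthenogenetic embryo develops from an egg without a sperm, so both of its chromosome sets passed through the female germline. Imprinted genes are read from 1 parental copy, because the egg or the sperm marks their control regions with DNA methylation. Cells with maternal chromosomes alone are known to lack transcripts of many genes read from the paternal copy and to hold more of many genes read from the maternal copy. Reprogramming with transcription factors returns a somatic cell to a pluripotent state, and germ cells, unlike most somatic cells, erase and rewrite the imprints.

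Signals are given as log2 signal, the normalized intensity on a log scale, and a difference is piPS-2F minus fESC on that scale with its standard error (±). A call required a change of 2-fold or more together with an adjusted p under 0.05, and a gene was read from its brightest kept probe. Where a probe was undetected on both arrays of 1 group, the change is given as at least so many fold, a lower bound set by the detection limit, in place of a log2 difference. The arrays differed in brightness. The mean intensity was 291 and 287 on the piPS-2F arrays, 495 and 476 on the fESC arrays, and 327 and 287 on the pESC-B arrays. The labels give no batch. This gap and the groups cannot be told apart, and its part in the results was not tested.

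Both populations carried the markers of pluripotent cells. Pou5f1, which encodes Oct4, read 12.98 and 13.15 on the piPS-2F arrays and 13.33 and 13.37 on the fESC arrays with its brighter probe and 12.998 and 12.87 on the piPS-2F arrays and 12.37 and 12.36 on the fESC arrays with the other. On the pNSC arrays the brighter probe read 4.55 and 4.45. The differences of -0.28 ± 0.16 and 0.57 ± 0.20 pointed in opposite directions and neither was called. Dppa5a, an RNA-binding protein abundant in embryonic stem cells, read 15.002 and 15.07 on the piPS-2F arrays and 15.14 and 15.04 on the fESC arrays, a difference of -0.06 ± 0.15 (adjusted p = 0.75). Nanog, a core transcription factor of pluripotency, read 11.92 and 11.91 on the piPS-2F arrays and 12.91 and 12.86 on the fESC arrays. Its difference of -0.97 ± 0.15 (adjusted p = 2.05e-04) lay just short of 2-fold. It passed 2-fold at -1.29 with median scaling, at -1.02 with the authors' processed values and at -1.04 with the 6 pluripotent arrays alone.

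Klf4, a factor used in the reprogramming, was called lower in piPS-2F by 1 of its probes. Its brightest probe read 8.14 and 8.48 on the piPS-2F arrays and 10.61 and 10.44 on the fESC arrays, 4.64-fold lower in piPS-2F (adjusted p = 1.19e-05). The groups did not overlap. Its other probes differed by -0.63 ± 0.16 and -0.62 ± 0.14 and were not called. Sox2, the partner of Oct4 on DNA, gave 2 readings. One probe read 10.07 and 9.99 on the piPS-2F arrays and 9.58 and 9.82 on the fESC arrays and was not called (0.33 ± 0.19, adjusted p = 0.148), while the other read 6.86 and 6.85 on the piPS-2F arrays and 10.74 and 10.55 on the fESC arrays, 13.8-fold lower (adjusted p = 6.72e-08). Myc was called higher (adjusted p = 3.41e-04) from a probe that was undetected in fESC and near the detection limit in piPS-2F, so no fold is given. It lost the call with an offset of 50, with median scaling and with the 6 pluripotent arrays alone.

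Of 40 tested pluripotency genes, 3 were called higher and 5 lower, beside 27.2% of all 7814 tested genes called in either direction. The list median of 0.20 lay beside 0.22 over all tested genes. Tdgf1, the Nodal co-receptor Cripto, fell in both of its probes. The brighter probe read 7.18 and 6.40 on the piPS-2F arrays and 10.63 and 10.42 on the fESC arrays, 13.3-fold lower (adjusted p = 3.97e-07), and the other was at least 17.3-fold lower. The pESC-B arrays read 6.74 and 7.06 and so lay with piPS-2F. Tcl1, a cofactor of the kinase Akt, fell by 1.79 ± 0.17 and 1.13 ± 0.19 in its 2 probes. Jarid2, which recruits Polycomb repressive complex 2, was at least 7.13-fold lower (adjusted p = 1.65e-06). Gbx2, a homeobox gene of naive embryonic stem cells, was 2.33-fold higher in piPS-2F (adjusted p = 9.90e-05). Nr5a2, a nuclear receptor, was called higher at 1.02 ± 0.13 from its brightest probe, and its other probe differed by -0.68. Tbx3 had 1 probe called lower (-1.49 ± 0.18) and 1 called higher (1.503 ± 0.22).

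Markers of other cell types were looked up on both sides. The neural stem cell markers Fabp7 and Pax6 were detected on no array of either group, and Pax6 on no pNSC array. Nes, another such marker, was detected on all 4 arrays with 1 probe. Its means were 6.28 in piPS-2F, 6.61 in fESC, 6.82 in pESC-B and 11.85 in pNSC, and its other probe was detected in neither group. Olig1, an oligodendrocyte lineage factor, was lower in piPS-2F at 5.50 and 5.45, against 9.12 and 9.33 in fESC and 14.60 and 14.76 in the cells of origin. The mean of Olig1 in pESC-B was 11.18. Slc1a3, a glutamate transporter of radial glia, was 3.53-fold higher in piPS-2F (adjusted p = 2.71e-06). It read 8.997 and 8.94 on the piPS-2F arrays and 6.98 and 7.31 on the fESC arrays, and 14.55 and 14.53 on the pNSC arrays. In pESC-B, with a mean of 9.52, Slc1a3 also lay above fESC. Over 42 neural stem cell genes with a probe, 14 were detected on both arrays in each group. The log2 of the summed signal of the 42 was 13.42 to 13.44 in piPS-2F, 13.06 to 13.12 in fESC and 17.72 to 17.77 in pNSC. In pESC-B 15 were detected, and the sum was 13.49 to 13.50, slightly above piPS-2F. Of the feeder fibroblast genes with a probe, 12 of 23 were detected in piPS-2F and 11 in fESC, with summed signals of 13.26 to 13.57 and 13.34 to 13.42. Col1a2 and Postn were detected on neither side, and Col3a1 on the fESC arrays alone. Col1a1, Thy1 and 1 probe of Dcn were detected on all 4 arrays. Their means were 7.01, 8.46 and 7.71 in piPS-2F and 6.66, 8.46 and 7.48 in fESC. Kdm5d and Eif2s3y, both Y-linked, were undetected on all 4 arrays, and Uty was detected on 1 array of each group.

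Among the kept probes, 1604 were called higher in piPS-2F and 1692 lower, 29.1% of 11310 in all (14.2% higher and 15% lower). By their brightest probe, 1058 genes were called higher (13.5%) and 1069 lower (13.7%). Higher genes made up 49.7% of the called genes with quantile normalization, 28.2% with median scaling and 41.4% with an offset of 50. The scaling also set the centre. The median difference over all genes was 0.22 with quantiles and -0.02 with medians, so list and chromosome medians are read against that of all genes. Arrays did not overlap between the groups for 83.2% of the kept probes, so a lack of overlap alone separated little.

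The share of called probes fell with brightness. The kept probes were ranked by mean signal and divided into 10 groups of 1131. In the dimmest group 49.2% were called, in the brightest 12.9%. The median difference was 0.65 in the dimmest group and between 0.10 and 0.22 in the others. Of the kept probes, 1700 passed the detection filter through piPS-2F only and 732 through fESC only. Among the called genes, 359 of the higher ones were undetected on both fESC arrays and 243 of the lower ones undetected on both piPS-2F arrays.

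**Figure D1:**
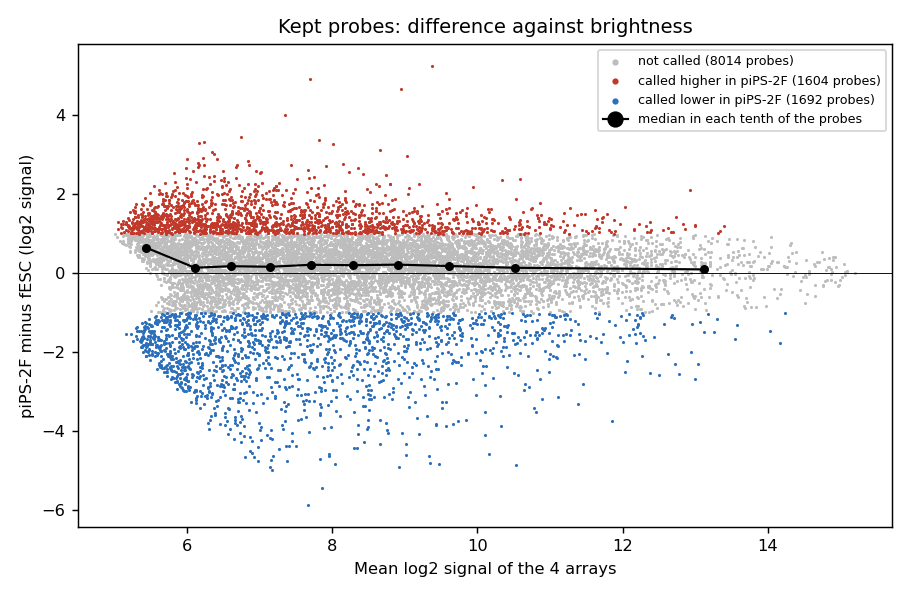
Each point is a kept probe, with the mean log2 signal of the 4 arrays on the horizontal axis and piPS-2F minus fESC (log2) on the vertical axis; red probes were called higher, blue probes lower, and the black line joins the median differences of 10 groups of 1131 probes ranked by signal. The median is 0.65 in the dimmest group and at most 0.22 in the others, and the largest differences are negative.

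Probes of the same gene often gave different answers. Of 2049 genes with several kept probes, 998 had at least 1 called probe. In 157 of these (15.7%) all kept probes were called in 1 direction, 87 higher and 70 lower. In 230 (23.05%) all probes differed the same way by at least 0.5 without all being called, and in 611 (61.2%) a probe differed by less or the other way. Opposite signs were seen in 379 genes, and in 57 genes probes were called in opposite directions. The brightest probe was called in 41.6% of the 998 genes and the dimmest in 72.3%. Agreement fell with the gap in signal between a gene's brightest and dimmest probe. Among the 333 genes with the smallest gap (up to 1.07) 25.5% agreed, and among the 333 with the largest gap (from 2.55) 9.61%. For 1712 called genes, 822 higher and 890 lower, a single kept probe was all there was to read.

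**Figure D2:**
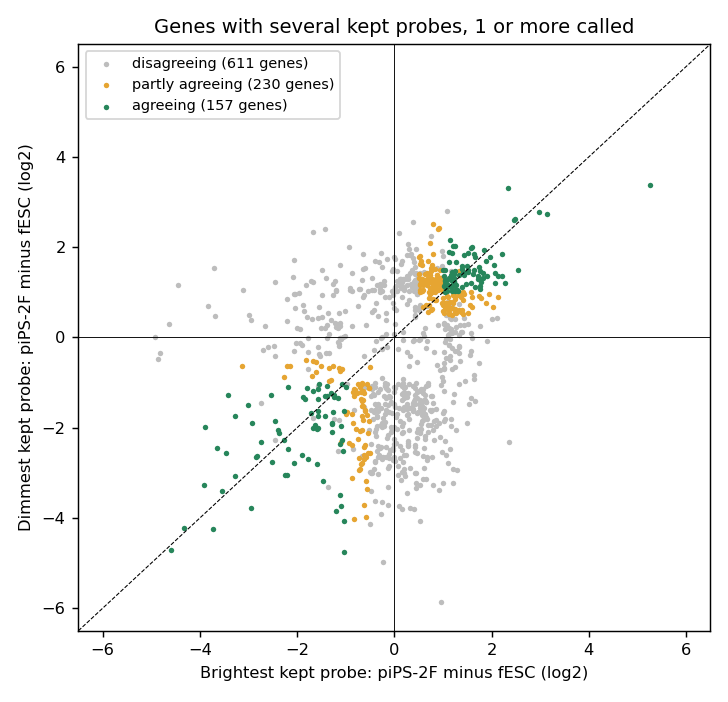
Each point is 1 of the 998 genes with several kept probes and at least 1 of them called, with piPS-2F minus fESC (log2) of its brightest kept probe on the horizontal axis and of its dimmest on the vertical axis; the dashed line marks equal differences. The 157 agreeing genes (green) lie in the lower left and upper right, while the 611 disagreeing genes (grey) spread along both axes with many dimmest probes strongly negative.

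Disagreement reached large sizes. Zfp330, a zinc finger protein, had a probe that read 4.66 and 4.79 on the piPS-2F arrays and 10.59 and 10.61 on the fESC arrays, and a second that read 10.63 and 10.66 on the piPS-2F arrays and 9.80 and 9.57 on the fESC arrays. The first was at least 35.2-fold lower and the second differed by 0.96 ± 0.15. Mff, the mitochondrial receptor for the fission enzyme Drp1, was called lower by 1 probe (-4.46 ± 0.27) and higher by the other (1.16 ± 0.14). Tor1aip2, a partner of torsin ATPases, did the same (at least 6.53-fold lower and at least 2.01-fold higher). The clathrin light chain gene Clta read 12.05 and 11.98 on the piPS-2F arrays and 12.31 and 12.19 on the fESC arrays with its brighter probe and 4.59 and 4.76 on the piPS-2F arrays and 9.88 and 9.45 on the fESC arrays with the other. Atpaf2, an assembly factor of the ATP synthase, differed by -4.64 ± 0.15 and 0.30 ± 0.14, and Mpv17l, a peroxisomal membrane protein, by -4.92 ± 0.19 and -0.00 ± 0.18. Which probe of such a gene follows its transcript was not tested.

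Of 12 tested imprinted genes read from the paternal copy, 7 were called lower in piPS-2F and none higher, beside 13.7% and 13.5% of all genes. The others, Ndn, Mkrn3, Igf2, Inpp5f and Dio3, were not called. Of the 12, 9 were detected on all 4 arrays and 3 passed through fESC alone. The list median was -1.10, or -1.32 relative to all genes. With pESC-B in place of piPS-2F, 8 were called lower and none higher, beside 14.5% and 14.9% of all genes. The median was then -2.06, beside 0.17 over all genes. Compared directly with pESC-B, piPS-2F had 4 of the genes called higher and none lower, beside 5.32% and 4.3% of all genes.

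Promoter sequences of 4 imprinted genes called here are shown with their CG sites. DNA methylation at CG sites of control regions is the known carrier of the imprint. Whether the windows shown lie in such control regions was not tested. They are RefSeq sequences of the mouse assembly GRCm38.p6, 250 bases before to 50 after a start site, written 5′ to 3′ on the gene's strand with CG dinucleotides in capitals. Of 15 called imprinted genes 12 had an entry.
Mest, start site 2, chr6:30737800-30738099, plus strand: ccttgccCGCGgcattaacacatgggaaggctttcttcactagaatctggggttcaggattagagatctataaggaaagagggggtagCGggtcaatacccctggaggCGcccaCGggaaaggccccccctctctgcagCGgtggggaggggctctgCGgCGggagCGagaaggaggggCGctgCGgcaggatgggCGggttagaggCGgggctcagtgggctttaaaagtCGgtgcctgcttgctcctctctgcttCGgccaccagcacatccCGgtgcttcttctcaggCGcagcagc
Snrpn, start site 4, chr7:60005150-60005449, minus strand: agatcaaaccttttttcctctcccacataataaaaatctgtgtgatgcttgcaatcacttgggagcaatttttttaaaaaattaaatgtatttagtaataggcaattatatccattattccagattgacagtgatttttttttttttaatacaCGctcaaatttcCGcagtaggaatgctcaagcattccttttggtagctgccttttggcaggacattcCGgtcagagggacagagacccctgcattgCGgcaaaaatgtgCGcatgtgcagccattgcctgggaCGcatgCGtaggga
Peg3, start site 1, chr7:6730370-6730669, minus strand: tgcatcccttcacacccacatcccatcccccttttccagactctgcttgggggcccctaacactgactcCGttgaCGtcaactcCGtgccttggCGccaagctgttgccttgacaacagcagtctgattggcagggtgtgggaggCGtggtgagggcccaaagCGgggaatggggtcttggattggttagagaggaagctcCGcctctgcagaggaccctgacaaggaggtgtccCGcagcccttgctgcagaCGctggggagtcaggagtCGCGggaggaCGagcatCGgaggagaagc
Grb10, start site 1, chr11:12037371-12037670, minus strand: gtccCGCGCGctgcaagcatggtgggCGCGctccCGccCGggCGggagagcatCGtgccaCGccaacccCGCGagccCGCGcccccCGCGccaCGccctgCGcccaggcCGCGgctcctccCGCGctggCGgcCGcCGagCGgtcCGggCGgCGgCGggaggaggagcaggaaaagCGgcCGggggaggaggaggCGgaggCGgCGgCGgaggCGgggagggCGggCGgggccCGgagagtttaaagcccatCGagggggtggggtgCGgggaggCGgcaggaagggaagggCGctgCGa
The windows hold 17 CG in Mest, 7 in Snrpn, 13 in Peg3 and 45 in Grb10, against a median of 7 over 32851 promoters of the same length. Windows of the start sites not shown hold 8 and 17 CG in Mest, 2, 3 and 4 in Snrpn and 9 in Grb10. At least as many as in Grb10 were found in 1.93% of the promoters, and as many as in Mest in 31.4%. TGCCGC, the core of the motif bound by the imprint-protecting factor Zfp57 when methylated, occurs on either strand 2 times in the Mest window, 1 time each in those of Snrpn and Grb10, and 0 times in that of Peg3. It occurs in 11.6% of all promoters, and methylation was not measured in these files.

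Mest, an enzyme of the alpha/beta hydrolase family expressed in embryonic mesoderm, agreed over 3 probes. Its brightest probe read 7.28 and 7.73 on the piPS-2F arrays and 10.83 and 10.72 on the fESC arrays, and 4.83 and 4.91 on the pESC-B arrays. The level in piPS-2F was 9.64-fold lower relative to fESC (adjusted p = 2.11e-07), and the other probes differed by -2.61 ± 0.19 and -3.08 ± 0.18. In that probe, undetected in pESC-B, piPS-2F was at least 3.94-fold higher than pESC-B (adjusted p = 3.22e-06), and the arrays of the 3 populations did not overlap. Snrpn, a spliceosome protein gene whose promoter window is shown above, behaved alike. It read 10.11 and 9.98 on the piPS-2F arrays and 12.86 and 12.86 on the fESC arrays and 7.89 and 8.05 on the pESC-B arrays, 7.04-fold lower relative to fESC (adjusted p = 1.45e-07) and 2.07 above pESC-B (adjusted p = 4.04e-06). Its second probe differed by -2.63 ± 0.16. Impact, a translational regulator, was also intermediate, at 10.73 and 10.58 in piPS-2F, 11.63 and 11.82 in fESC and 9.59 and 9.71 in pESC-B.

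The other 4 called genes had 1 kept probe each. Slc38a4, an amino acid transporter, read 6.13 and 6.62 on the piPS-2F arrays and 9.66 and 9.56 on the fESC arrays (9.41-fold lower, adjusted p = 1.21e-05). Peg10, derived from a retrotransposon and required in the placenta, was at least 4.53-fold lower (adjusted p = 4.17e-06). Peg3, a zinc finger gene, was at least 3.85-fold lower (adjusted p = 2.77e-06). Both were undetected in piPS-2F. Dlk1, a non-canonical Notch ligand, read 6.57 and 6.37 on the piPS-2F arrays and 7.69 and 7.53 on the fESC arrays and 7.39 and 7.07 on the pESC-B arrays, so that here piPS-2F was the lowest of the 3.

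Genes read from the maternal copy were more often higher. Of 19 tested, 7 were called higher and 1 lower, against 13.5% and 13.7% of all genes, and the median was 0.43, or 0.21 above all genes. With an offset of 50 or with median scaling 4 were called higher, beside 604 and 528 of all 7814 genes. Cdkn1c, the cell cycle inhibitor p57, read 11.97 and 11.61 on the piPS-2F arrays and 9.20 and 9.59 on the fESC arrays, 5.27-fold higher (adjusted p = 3.09e-06). Phlda2, which limits placental growth, read 11.87 and 11.65 on the piPS-2F arrays and 9.97 and 9.97 on the fESC arrays, 3.46-fold higher (adjusted p = 2.25e-06). In neither did the groups overlap, and pESC-B lay at the piPS-2F level, at 11.42 and 11.79 for Cdkn1c and 11.71 and 11.94 for Phlda2. Grb10, an adaptor that dampens insulin signalling, read 10.65 and 10.73 on the piPS-2F arrays and 8.99 and 9.07 on the fESC arrays and 12.50 and 12.17 on the pESC-B arrays. It was 3.16-fold higher in piPS-2F relative to fESC (adjusted p = 8.82e-05) and lower relative to pESC-B (-1.64, adjusted p = 3.27e-04).

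H13, a signal peptide peptidase, was called higher in all 3 kept probes, by 1.02 ± 0.16, 1.89 ± 0.16 and, in a probe undetected in fESC, at least 1.45-fold. The call of its brightest probe was lost with an offset of 50 (0.84), median scaling (0.69), the 6 pluripotent arrays alone (0.999), and without piPS-2F replicate 2 (0.95) or fESC replicate 1 (0.79). Pon2 (1.48 ± 0.17), Atp10a (at least 1.69-fold) and Slc22a18 were also called higher, the last 2 from probes undetected in fESC. Ube3a, a ubiquitin ligase imprinted in neurons, was called lower by 1 probe (-2.01 ± 0.21) and not by the other (0.21 ± 0.27, adjusted p = 0.518).

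**Figure D3:**
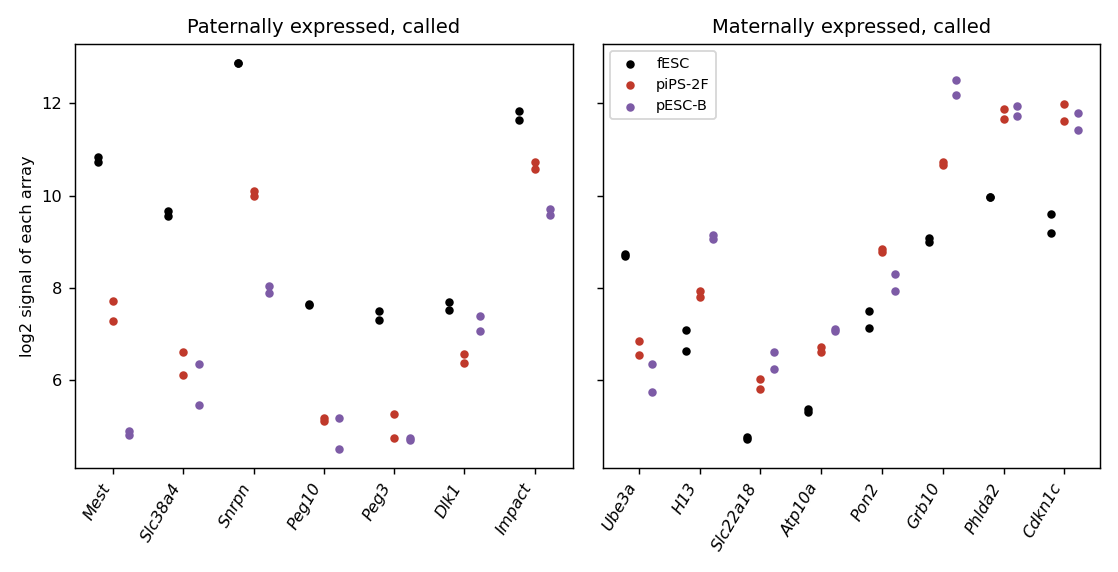
Log2 signal on each array for the called genes read from the paternal copy (left) and the maternal copy (right), with the 2 arrays of fESC in black, piPS-2F in red and pESC-B in purple. Mest, Snrpn and Impact lie between fESC and pESC-B in piPS-2F, Peg10 and Peg3 lie at the level of pESC-B, and Cdkn1c and Phlda2 lie above fESC in both parthenogenetic populations.

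Of 12 tested genes of the primed epiblast, the state after implantation, 8 were called higher in piPS-2F and 1 lower, beside 13.5% and 13.7% of all genes. Gsc, Nodal and Cdx1 were not called. The list median was 1.21, or 0.99 above all genes. In pESC-B against fESC 6 were called higher and none lower, beside 14.9% and 14.5% of all genes, with a median of 0.92. In piPS-2F against pESC-B 1 was called higher and 1 lower, beside 5.32% and 4.3%, with a median of -0.27. Of the 12, 6 were detected on all 4 arrays and 5 passed through piPS-2F alone. Among genes detected on all 4 arrays, 3 of 6 were called higher, beside 594 of all 6365 genes. With median scaling 4 of 12 were, beside 528 of all 7814 genes. Wnt8a, a Wnt ligand of the early streak, agreed in 2 probes, which read 7.36 and 7.55 on the piPS-2F arrays and 4.86 and 5.15 on the fESC arrays, and 7.46 and 7.31 on the piPS-2F arrays and 4.97 and 4.61 on the fESC arrays. It was at least 2.91-fold higher (adjusted p = 1.72e-06), and the pESC-B arrays read 7.86 and 8.38. Fgf5, the marker growth factor of the epiblast, was at least 2.07-fold higher (adjusted p = 1.17e-04). Pou3f1 (Oct6), a POU factor of the epiblast and of neural progenitors, was 3.27-fold higher (adjusted p = 6.84e-05).

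Otx2, which drives the exit from the naive state, read 9.44 and 9.43 on the piPS-2F arrays and 7.44 and 8.14 on the fESC arrays, and 7.16 and 7.74 on the pESC-B arrays. It was 1.64 ± 0.24 above fESC (adjusted p = 1.67e-04) and 1.98 above pESC-B (adjusted p = 1.75e-04). Zic2 (at least 1.92-fold), Sall2 (at least 1.48-fold) and Evx1 (1.15 ± 0.18) were called higher from 1 probe each. Dnmt3b, a de novo DNA methyltransferase, was 2.28-fold higher with its brighter probe at 14.02 and 13.96 on the piPS-2F arrays and 12.71 and 12.89 on the fESC arrays, and its other probe differed by -0.23 ± 0.18. The call was lost with median scaling (0.90). Eomes, a T-box factor of mesendoderm and trophoblast, went the other way and was at least 2.51-fold lower (adjusted p = 4.90e-05).

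Genes of Wnt, Nodal and BMP signalling were called in both directions. Of 38 tested, 7 were called higher and 3 lower, beside the 13.5% and 13.7% of all genes. With median scaling 4 were higher and 6 lower, beside 528 and 1343 of all 7814 genes. Tcf7l2, a DNA-binding effector of Wnt signalling, was at least 2.93-fold higher (adjusted p = 5.62e-06). Axin2, a feedback target of the pathway, read 8.58 and 8.66 on the piPS-2F arrays and 7.49 and 7.17 on the fESC arrays (1.29 ± 0.14, adjusted p = 2.43e-05). Lrp6, the Wnt co-receptor, was higher than in fESC (1.07 ± 0.14) and than in pESC-B (at least 3.39-fold, adjusted p = 1.82e-06). Id2, a target of BMP signalling that blocks basic helix-loop-helix factors, fell in both probes. It read 6.25 and 5.61 on the piPS-2F arrays and 9.77 and 9.92 on the fESC arrays, 15.1-fold lower (adjusted p = 2.07e-07), and 7.25 and 7.17 on the pESC-B arrays.

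Genes of the two-cell stage and Pramel list were called in both directions. The two-cell state is a rare and transient state of mouse embryonic stem cell cultures. The list also holds Pramel7, Pramel20, Ooep, Khdc3 and Nlrp14, so its counts are not those of that state alone. Of 13 tested genes 7 were called lower and 2 higher, beside 13.7% and 13.5% of all genes, with a median of -1.14. The median was -0.62 without piPS-2F replicate 2, -0.73 with an offset of 50 and -0.58 with undetected probes at their bounds. With detection on all 4 arrays it was -0.42, and 4 of 9 genes were called lower, beside 727 of all 6365 genes. Against pESC-B, 8 were called higher in piPS-2F and none lower, beside 5.32% of all genes higher in that contrast. Zscan4c, a zinc finger gene of the state, read 9.69 and 9.77 on the piPS-2F arrays and 11.25 and 10.92 on the fESC arrays, and 4.72 and 4.36 on the pESC-B arrays. It differed from fESC by -1.35 ± 0.18 (adjusted p = 8.26e-05) and was at least 18.4-fold higher than in pESC-B, where it was undetected (adjusted p = 4.42e-08). Tcstv3 and Tcstv1, members of a small family of the same state with similar sequences, were 19.5-fold lower and 8.3-fold lower than in fESC. Tcstv3 read 6.195 and 6.40 on the piPS-2F arrays and 10.80 and 10.36 on the fESC arrays, and 4.81 and 4.39 on the pESC-B arrays. Pramel7, which favours the ground state, was undetected in piPS-2F and at least 8.93-fold lower (adjusted p = 5.01e-08).

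Germline genes split. Of 14 tested, 5 were called higher and 3 lower, beside 13.5% and 13.7% of all genes, and the median of 0.75 lay 0.54 above all genes. With undetected probes at their bounds it was 0.27, beside 0.15 over all genes. It lay at -0.01 relative to all genes when detection on all 4 arrays was required, which left 9 genes. Nanos3, which protects primordial germ cells, was at least 3.9-fold higher (adjusted p = 4.95e-07), at 7.68 and 8.08 on the piPS-2F arrays against 5.05 and 5.41 on the pESC-B arrays. Dnd1, an RNA-binding partner of Nanos proteins, was higher at 1.30 ± 0.22 (adjusted p = 4.55e-04). Dazl, an RNA-binding protein of germ cells, read 6.52 and 6.82 on the piPS-2F arrays and 8.32 and 8.06 on the fESC arrays and fell (-1.52 ± 0.19, adjusted p = 6.20e-05). Stk31 (-1.52 ± 0.21) and the X-linked Tex11 (-1.56 ± 0.32) were lower, and Tex11 lost the call without piPS-2F replicate 1 (-0.88). In pESC-B minus fESC, Dazl differed by -2.41 and Stk31 by -2.89, and Tex11, undetected in pESC-B, was at least 3.02-fold lower.

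The strongest rise that several probes shared was in Slc4a3, an anion exchanger of excitable tissues on chromosome 1. Its 3 probes read 12.01 and 12.01 on the piPS-2F arrays and 6.65 and 6.86 on the fESC arrays, 11.29 and 11.30 on the piPS-2F arrays and 6.74 and 6.495 on the fESC arrays, and 9.68 and 9.35 on the piPS-2F arrays and 6.18 and 6.09 on the fESC arrays. The differences were 5.25 ± 0.13 (38.2-fold higher, adjusted p = 5.93e-09), 4.68 ± 0.17 and 3.38 ± 0.15. The pESC-B arrays, at 6.60 and 6.68 with the brightest probe, lay with fESC, and the pNSC arrays lay between at 8.99 and 8.83. Adam23, an integrin-binding membrane protein also on chromosome 1, was 8.75-fold higher (adjusted p = 1.26e-07) and exceeded pESC-B by 2.09. Liph, a phospholipase, rose in 2 probes by 2.48 ± 0.13 and 2.62 ± 0.20, and Sytl3, a Rab27 effector, by at least 3.4-fold and at least 3.77-fold. Zfp423, a cofactor of BMP-activated Smads, rose by 2.21 ± 0.22 and at least 3.11-fold.

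Ivns1abp, a kelch-type protein on chromosome 1, read 10.52 and 10.52 on the piPS-2F arrays and 7.62 and 7.46 on the fESC arrays, and 10.78 and 10.76 on the pESC-B arrays (2.98 ± 0.13, adjusted p = 6.21e-08). The X-linked Tro rose by 1.84 ± 0.18 and 1.94 ± 0.17, and the centrosomal scaffold Akap9 by 1.79 ± 0.15 and 1.97 ± 0.13. Pfkm, the muscle form of phosphofructokinase, rose in 3 probes by 1.87 ± 0.12, 2.23 ± 0.16 and 1.68 ± 0.22. Over the 87 agreeing higher genes the median was 1.41, and the same genes had a median of 1.06 in pESC-B minus fESC and 0.32 in piPS-2F minus pESC-B. With undetected probes held at their bounds, every probe rose at least 2-fold in 51 of them, at least 4-fold in 4 and at least 8-fold in 1, Slc4a3.

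Single-probe genes reached similar sizes. Cdc42ep2, an effector of the GTPase Cdc42, read 10.13 and 10.17 on the piPS-2F arrays and 5.51 and 4.97 on the fESC arrays and was at least 18.9-fold higher (adjusted p = 3.76e-08). The pNSC arrays read 9.24 and 9.21 and the pESC-B arrays 5.99 and 5.91. Nod1, a sensor of bacterial peptidoglycan, read 9.51 and 9.21 on the piPS-2F arrays and 5.39 and 5.32 on the fESC arrays and was at least 10.9-fold higher, with 9.54 and 9.55 on the pESC-B arrays. Abcc10, a drug transporter, was at least 5.92-fold higher, and A3galt2, a glycosyltransferase, at least 3.96-fold higher. Cd276, an immune checkpoint ligand, was 9.76-fold higher and was detected on both fESC arrays.

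Falls were larger than rises among agreeing genes. Of the 70 agreeing lower genes, every probe fell at least 2-fold in 63, at least 4-fold in 14 and at least 16-fold in 1, Bex1, with undetected probes held at their bounds. Bex1, an X-linked adaptor expressed in neurons, read 5.42 and 5.90 on the piPS-2F arrays and 10.28 and 10.21 on the fESC arrays, and 5.29 and 5.54 on the pESC-B arrays (-4.59 ± 0.20, adjusted p = 6.55e-08). Snx5, a sorting nexin of the retromer pathway, read 6.30 and 6.69 on the piPS-2F arrays and 10.76 and 10.89 on the fESC arrays (-4.33 ± 0.16, adjusted p = 3.76e-08), and its second probe was at least 12.7-fold lower. The proteasome subunit gene Psmd6 (-2.95 ± 0.26 and at least 8.9-fold), the transcription factor gene Mlx (at least 4.88-fold and at least 3.41-fold) and Snx3 (-3.46 ± 0.19 and at least 3.22-fold) fell in both of their probes. Over the 70 genes the median was -1.68, with -1.60 in pESC-B minus fESC and -0.04 in piPS-2F minus pESC-B.

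Wdr46, which acts in ribosome assembly, fell in piPS-2F and not in pESC-B. It read 4.72 and 4.52 on the piPS-2F arrays and 8.10 and 8.24 on the fESC arrays, 9.37 and 9.45 on the pESC-B arrays and 5.07 and 5.29 on the pNSC arrays. It was at least 6.52-fold lower than in fESC (adjusted p = 3.93e-08) and at least 15.4-fold lower than in pESC-B (adjusted p = 1.45e-08). Trim59, a ubiquitin ligase with 1 probe, was also lower in piPS-2F than in fESC and pESC-B. It read 4.398 and 4.82 on the piPS-2F arrays, 9.45 and 9.28 on the fESC arrays and 9.13 and 9.06 on the pESC-B arrays. It was at least 14.9-fold lower than in fESC (adjusted p = 4.60e-08). Dis3, the catalytic exosome subunit, was at least 12.7-fold lower and lay midway in pESC-B at 6.49 and 6.49. Nono, an X-linked paraspeckle protein, read 5.45 and 5.81 on the piPS-2F arrays and 10.42 and 10.49 on the fESC arrays, and 5.29 and 5.601 on the pESC-B arrays. Tma7, a small ribosome-associated protein, was at least 17.5-fold lower.

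Atf4, the transcription factor of the integrated stress response, fell in piPS-2F. It read 7.12 and 6.9999 on the piPS-2F arrays and 11.82 and 11.96 on the fESC arrays, 28.4-fold lower (adjusted p = 5.93e-09), and 11.28 and 11.22 on the pESC-B arrays, with -4.19 as the difference from them (adjusted p = 2.06e-08). The pNSC arrays read 7.52 and 7.66, near piPS-2F, and the gene had 1 kept probe. Of 38 tested genes of the stress response list, 10 were called lower and 2 higher, beside 13.7% and 13.5% of all genes. Against pESC-B, 11 were called lower and none higher, beside 4.3% of all genes. Slc3a2, the heavy chain of amino acid exchangers and a target of Atf4, was at least 12.8-fold lower (adjusted p = 7.67e-08). Vldlr, a lipoprotein receptor, fell in 2 probes (-1.25 ± 0.14 and at least 2.08-fold) and lay further below pESC-B (-3.02, adjusted p = 1.77e-07). It lost the call with an offset of 50 (-0.85). Mthfd2, a mitochondrial folate enzyme, read 8.84 and 8.77 on the piPS-2F arrays and 10.23 and 10.47 on the fESC arrays and fell (-1.54 ± 0.17, adjusted p = 2.31e-05), and Cth, of cysteine synthesis, fell by 1.76 ± 0.19. Sesn2, an inhibitor of mTORC1 signalling, rose in both probes (1.29 ± 0.14 and at least 1.41-fold).

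Genes of the mitochondrial respiratory chain were called in 1 direction. Of 71 tested, 25 were called lower and none higher, beside 13.7% and 13.5% of all genes, and the median was -0.59, or -0.81 relative to all genes. Between 20 and 30 genes were called lower, and none higher, with another offset, scaling or detection filter. Of the 25, 2 had agreeing probes, 22 had 1 probe and 1 had a probe that did not follow. Sdhb, a subunit of succinate dehydrogenase, agreed over 3 probes at -1.17 ± 0.16, -1.19 ± 0.17 and at least 1.65-fold. Ndufa5, of complex I, was called in both probes at very different sizes, -1.03 ± 0.22 and at least 19.7-fold lower. The first lost the call without piPS-2F replicate 1 or fESC replicate 1 (both -0.87). Cox7b, an X-linked subunit of cytochrome c oxidase, read 6.17 and 6.07 on the piPS-2F arrays and 10.71 and 10.41 on the fESC arrays (21.7-fold lower, adjusted p = 1.76e-08), and Ndufb4 of complex I read 5.51 and 5.13 on the piPS-2F arrays and 9.84 and 9.55 on the fESC arrays (20.7-fold lower). Cycs, cytochrome c, was at least 8.83-fold lower with 1 probe, and the other, undetected in fESC, was not called.

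The same list stood as far below fESC in pESC-B, whose arrays were as dim as those of piPS-2F. There 25 genes were called lower and none higher, beside 14.5% and 14.9% of all genes. The median was again -0.59, beside 0.17 over all genes in that contrast. In piPS-2F against pESC-B 2 were called higher and none lower, beside 5.32% and 4.3%. Cox7b read 5.87 and 5.99 and Ndufb4 5.55 and 5.76 on the pESC-B arrays. On the bright pNSC arrays they read 8.58 and 8.55 and 8.86 and 8.61. The part of array brightness in these differences was not tested.

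Cytosolic ribosomal protein genes and chaperone genes were more often called lower than higher. Of 59 tested ribosomal protein genes 14 were called lower and 1 higher, beside 13.7% and 13.5% of all genes. In pESC-B against fESC the counts were 15 and 1, beside 14.5% and 14.9%. In piPS-2F against pESC-B they were 1 and 0, beside 4.3% and 5.32%. With median scaling 25 were called lower, beside 1343 of all 7814 genes. Rpl22l1, a paralogue of Rpl22, read 5.32 and 4.95 on the piPS-2F arrays and 10.69 and 10.48 on the fESC arrays and was at least 34.8-fold lower (adjusted p = 8.18e-08). Rpl39l, a paralogue of Rpl39, was at least 13.2-fold lower, and Rps3a1 read 9.79 and 9.65 on the piPS-2F arrays and 13.09 and 13.003 on the fESC arrays (10-fold lower). Rps15a rose (2.43 ± 0.15, adjusted p = 5.07e-07). Ribosomal protein genes have many processed copies in the genome, and probes may not separate them.

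Of 37 tested chaperone genes 13 were called lower and 3 higher, beside 13.7% and 13.5% of all genes. Their median was -0.11, or 0.03 with the mean of all kept probes, beside 0.22 and 0.18 over all genes. In pESC-B against fESC 16 were called lower and 2 higher, beside 14.5% and 14.9% of all genes. In piPS-2F against pESC-B 1 was lower and 2 higher, beside 4.3% and 5.32%. Hsp90aa1, an inducible form of Hsp90, read 7.84 and 8.26 on the piPS-2F arrays and 12.08 and 12.22 on the fESC arrays (17.1-fold lower, adjusted p = 6.34e-07), and 7.98 and 8.16 on the pESC-B arrays. Hspa5, the chaperone BiP of the endoplasmic reticulum, fell by 3.86 ± 0.25. The chaperonin ring genes Cct5 (-3.86 ± 0.23), Cct7 (-3.05 ± 0.20) and Cct2 (-2.500 ± 0.22) fell with 1 probe each, and the co-chaperone Dnaja2 fell in 2 (-1.57 ± 0.16 and at least 3.49-fold). Hspa2, a testis-enriched member of the Hsp70 family, rose in 2 probes (1.21 ± 0.17 and at least 1.6-fold) and lost the call with median scaling (0.91).

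Other metabolic lists were called in both directions, beside 13.5% higher and 13.7% lower over all genes. Of 27 glycolysis genes 3 were called higher, with Pfkm first, and 2 lower. Pfkfb2 (1.197 ± 0.18) and Dlat (1.07 ± 0.19) were called higher and lost the call with an offset of 50 (0.93 and 0.77) and with median scaling (0.85 and 0.68). Dlat lost it also with the 6 pluripotent arrays (0.96), and both lost it without fESC replicate 2 (0.94 and 0.83). Aldoa, a glycolytic aldolase, fell from 13.22 and 13.19 to 12.14 and 12.16. Of 20 genes of one-carbon metabolism 1 was called higher and 4 lower. Ahcy, which clears S-adenosylhomocysteine, rose (at least 2.5-fold higher, adjusted p = 1.22e-06), and Paics, of purine synthesis, fell (12.1-fold lower, adjusted p = 1.13e-06), as did Dld (-2.70 ± 0.19). Of 20 cholesterol genes 3 were called higher and 6 lower. Msmo1 read 5.81 and 6.78 on the piPS-2F arrays and 9.80 and 10.06 on the fESC arrays and fell (12.4-fold lower, adjusted p = 1.72e-06), while the pESC-B arrays read 10.44 and 10.61. Idi1 (-2.70 ± 0.17) and the lysosomal carrier Npc2 (-2.34 ± 0.14) were lower, and Hsd17b7 was higher (2.05 ± 0.18).

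The calls among chromatin genes moved with the scaling, as did those of all genes. Of 54 tested Polycomb and histone modifier genes 13 were called higher and 4 lower, beside 13.5% and 13.7% of all genes. With median scaling 6 were higher and 7 lower, beside 528 and 1343 of all 7814 genes. The list median lay 0.23 above that of all genes with quantile normalization and with median scaling. Chd1, a remodeller that keeps embryonic stem cell chromatin open, rose in both probes (1.83 ± 0.21 and 1.31 ± 0.15). Rnf2, the catalytic subunit of Polycomb repressive complex 1, read 4.79 and 4.61 on the piPS-2F arrays and 8.72 and 8.79 on the fESC arrays and was at least 9.78-fold lower (adjusted p = 9.38e-08). Eed, of complex 2, read 10.45 and 10.44 on the piPS-2F arrays and 12.01 and 11.98 on the fESC arrays and fell (-1.55 ± 0.12, adjusted p = 2.35e-06). Ezh1, an alternative methyltransferase of complex 2, was called higher (at least 1.25-fold). Of 16 genes that write or erase DNA methylation, 2 were called higher and none lower, Dnmt3b and Apobec1 (at least 1.97-fold). Apobec1 lost the call with an offset of 50 (0.83) and with median scaling (0.79). Dnmt1, the maintenance methyltransferase, differed by 0.05 ± 0.13 (adjusted p = 0.747).

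Of 47 tested cell cycle and p53 target genes, 9 were called higher and 5 lower, beside 13.5% and 13.7% of all genes. With median scaling 6 were higher and 8 lower, beside 528 and 1343 of all 7814 genes. Mdm2, the ubiquitin ligase of p53 and its target, rose in both probes, which read 12.44 and 12.39 on the piPS-2F arrays and 10.94 and 11.08 on the fESC arrays, and 12.23 and 12.26 on the piPS-2F arrays and 10.78 and 10.69 on the fESC arrays. It was 2.64-fold higher (adjusted p = 7.71e-06). Pcna, the sliding clamp of DNA replication, read 6.59 and 6.88 on the piPS-2F arrays and 10.64 and 10.94 on the fESC arrays (16.6-fold lower, adjusted p = 4.19e-07), and 7.03 and 6.44 on the pESC-B arrays. Gmnn, the licensing inhibitor geminin, was at least 7.01-fold lower, and Ccna2, cyclin A2, at least 3-fold lower. Mcm3, of the replicative helicase, was higher (1.003 ± 0.13). Of 20 tested genes of antigen presentation and the interferon response 7 were called higher and 4 lower, beside 13.5% and 13.7% of all genes. Of the 20, 8 passed the detection filter through piPS-2F alone. With detection on all 4 arrays 1 of 11 was called higher and 3 lower, beside 594 and 727 of all 6365 genes. Irf1, an interferon-responsive transcription factor, rose in 4 probes by 1.24 ± 0.16, 1.38 ± 0.16, 1.91 ± 0.19 and 2.03 ± 0.29. H2-T23, a non-classical MHC class I gene, fell (-2.32 ± 0.18), as did Ifitm1, an antiviral membrane protein (-2.21 ± 0.16).

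Epithelial genes were more often called lower than higher in piPS-2F, in comparison with either embryonic stem cell group. Of 21 tested, 6 were called lower and 1 higher, beside 13.7% and 13.5% of all genes, with a median of -0.44. In pESC-B against fESC 3 were lower and 5 higher, beside 14.5% and 14.9%, and in piPS-2F against pESC-B 6 were lower and none higher, beside 4.3% and 5.32%. Cdh1, the adhesion protein E-cadherin, read 9.67 and 9.77 on the piPS-2F arrays and 11.18 and 11.30 on the fESC arrays, and 10.29 and 10.27 on the pESC-B arrays (-1.52 ± 0.14, adjusted p = 5.55e-06). The keratins Krt18 (-2.40 ± 0.14, adjusted p = 3.60e-07) and Krt8 (-1.55 ± 0.14, adjusted p = 7.67e-06) were lower. Cldn3, a tight junction claudin, was at least 2.09-fold lower and Tjp1, a junctional scaffold, 4.84-fold lower.

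Of 14 trophectoderm genes 4 were called lower and 1 higher, beside 13.7% and 13.5% of all genes. Beside Eomes these were Rhox6 (-1.47 ± 0.20), Gata2 (-1.25 ± 0.16) and Gata3 (-1.15 ± 0.20). Gata3 lost the call with an offset of 50 (-0.92) and without fESC replicate 1 (-0.91). Of 11 extraembryonic endoderm genes 3 were lower and none higher, and without piPS-2F replicate 2 the number lower was 1. Lamb1, a laminin chain, was at least 3.24-fold lower. Lama1 (-1.54 ± 0.32) lost its call without piPS-2F replicate 2 (-0.90). Apoe (-1.03 ± 0.13) lost it without that array (-0.97) or without fESC replicate 1 (-0.99). Elf5, Gata4 and Sox17 were undetected on all 4 arrays. Cdx2, Gata6 and 1 probe of Sox7 were detected on all 4, and none of them was called. Their means were 6.84, 5.88 and 6.14 in piPS-2F and 6.07, 6.37 and 6.42 in fESC. Among feeder genes, Thbs1 (2.10 ± 0.28) and Lox (1.58 ± 0.21) were higher and Col3a1 was at least 3.06-fold lower. Of the neural genes, Hes6, a repressor of Hes1, rose in 3 probes (1.73 ± 0.17, 1.36 ± 0.34 and 2.11 ± 0.27), and Id4 was at least 4.72-fold lower.

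**Figure D4:**
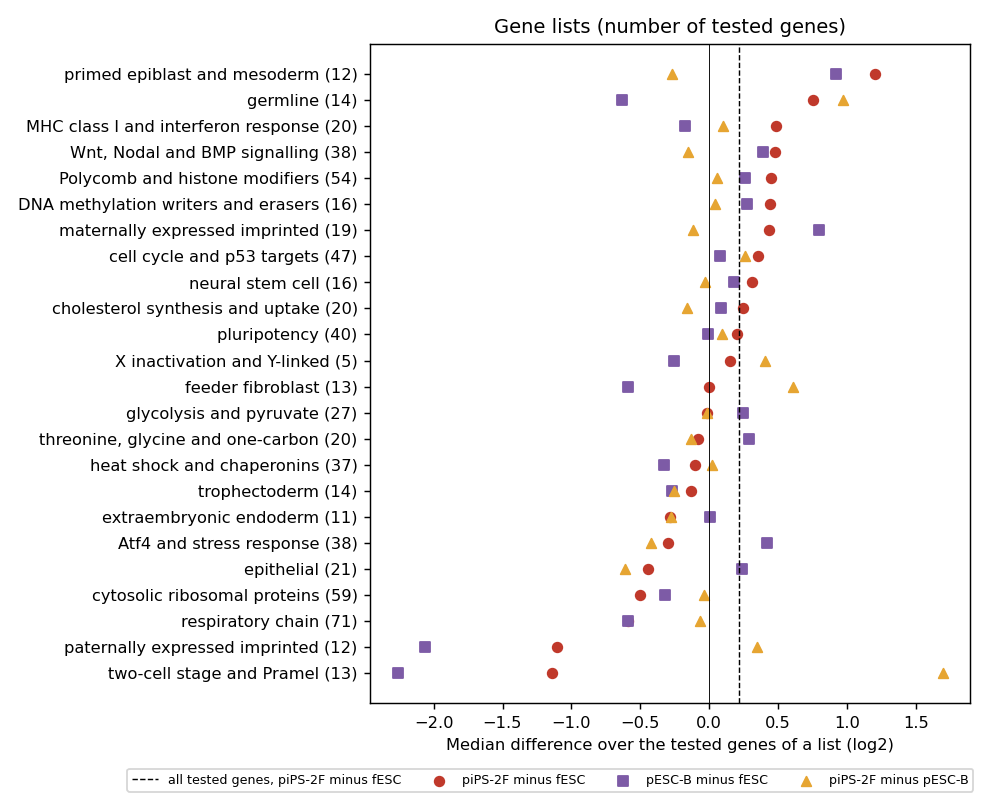
The median difference (log2) over the tested genes of each list, with piPS-2F minus fESC as red circles, pESC-B minus fESC as purple squares and piPS-2F minus pESC-B as orange triangles; the dashed line marks 0.22, the median of all tested genes in piPS-2F minus fESC. The primed epiblast list lies highest at 1.21, the imprinted genes read from the paternal copy lie at -1.10 and the two-cell stage and Pramel list at -1.14. For the respiratory chain the red circle is hidden under the purple square at -0.59. The contrasts share arrays.

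Chromosome 1 stood above the other chromosomes in piPS-2F. Its 376 tested genes had a median of 0.74, or 0.52 above all genes, beside 0.38 on the next highest chromosome, 8, and 0.21 over the other autosomes. Of these genes 121 were called higher (32.2%) and 35 lower, against 12.7% and 13.7% on the other autosomes. The median over each pair of 1 piPS-2F and 1 fESC array ran from 0.68 to 0.73. Each of 4 consecutive stretches of 94 genes along the chromosome had a median between 0.53 and 0.83. In pESC-B minus fESC the median was 0.20 and in piPS-2F minus pESC-B it was 0.43, with 0.00 over all genes. Minus pNSC, the cells of origin, it was 0.47, beside 0.05 to 0.45 on the other autosomes and 0.50 on X. Of the 87 agreeing higher genes 17 lay on chromosome 1, Slc4a3, Adam23 and Ivns1abp among them, and of the 70 agreeing lower genes 0. The chromosome held 4.81% of all tested genes. Relative to all genes the shift was 0.41 with an offset of 50, 0.50 with median scaling, 0.57 with the authors' processed values and 0.03 with no filter on detection, which adds undetected genes. Copy number was not measured in these files.

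The X chromosome lay below the autosomes. Its 276 tested genes had a median of -0.02, or -0.24 relative to all genes. Of them 24 (8.7%) were called higher and 54 (19.6%) lower, beside 13.5% and 13.7% of all genes. Chromosomes 13 and 15 had similar shares, with 9.69% and 9.37% called higher and 20.4% and 18.4% lower. In pESC-B minus fESC the median was -0.39 and in piPS-2F minus pESC-B it was 0.36. Xist, the noncoding RNA that silences an X chromosome, was higher in piPS-2F in both probes, which read 6.79 and 7.25 on the piPS-2F arrays and 5.03 and 5.54 on the fESC arrays, and 6.81 and 6.54 on the piPS-2F arrays and 5.08 and 5.13 on the fESC arrays. It was undetected in fESC and at least 2.15-fold higher (adjusted p = 4.29e-04). The pNSC arrays read 9.56 and 10.33. Ddx3x, an X-linked RNA helicase, read 8.82 and 8.68 on the piPS-2F arrays and 11.87 and 11.86 on the fESC arrays (8.7-fold lower, adjusted p = 2.52e-07) and 8.74 and 8.64 on the pESC-B arrays.

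**Figure D5:**
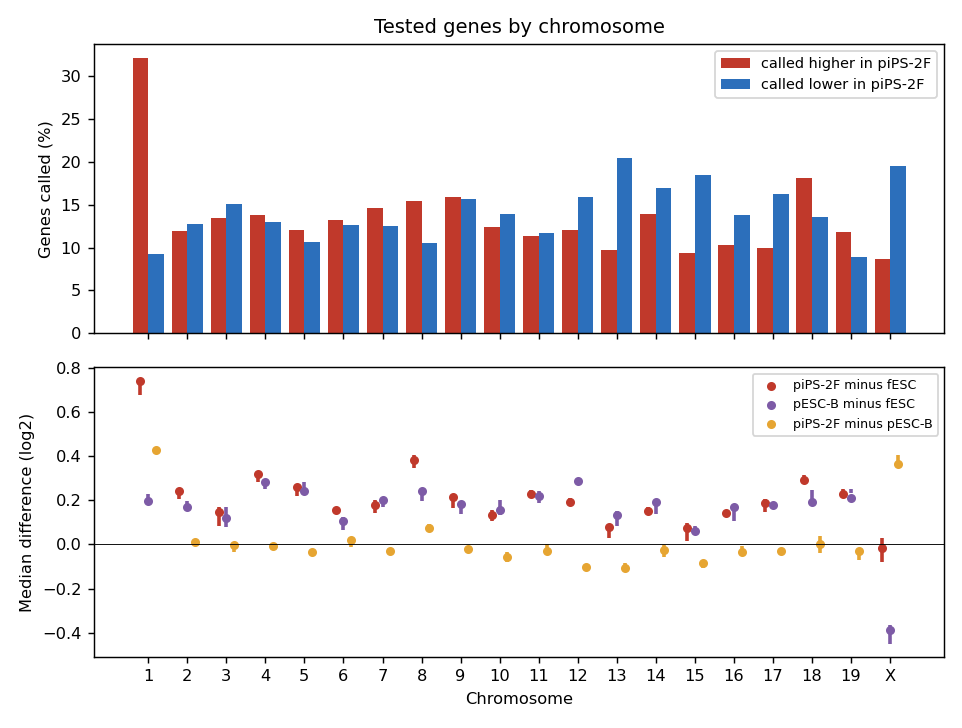
Upper panel, the percent of tested genes on each chromosome called higher (red) or lower (blue) in piPS-2F than in fESC; lower panel, the median difference (log2) in 3 contrasts, as points, with a bar from the lowest to the highest median over the single-array pairs. Chromosome 1 has 32.2% of its genes called higher and a median of 0.74, and X lies at -0.02.

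Against pESC-B, the other parthenogenetic line, piPS-2F differed less often. In that contrast 9.62% of the genes were called, 416 higher and 336 lower, beside 29.3% in pESC-B against fESC. The contrasts share arrays, and piPS-2F and pESC-B arrays were alike in brightness while the fESC arrays were brighter.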

How the data were processed

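RNA was hybridised to 10 single-colour Illumina mouse arrays. The authors deposited an intensity per probe on a linear scale and a detection p-value for every probe and array. The authors also deposited processed values, taken here as log2 from their range and used as an alternative. The submitters' processing notes name BeadStudio 3.2, RMA and lumi. With limma 3.58.1 in R 4.3.3, neqc fitted background with the help of the detection p-values, then applied an offset of 16, quantile normalization and log2. Probes were kept with a detection p under 0.01 on both arrays of piPS-2F or of fESC. A linear model over all 10 arrays (lmFit and eBayes) gave two-sided p-values, adjusted by Benjamini-Hochberg over 11310 probes. Of these 10640 carried a symbol, from the platform annotation, and chromosomes came from a RefSeq gene table (GRCm38.p6). For the probes, no genome build was stated in the sources used. The number of arrays limits the precision.

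Where a probe was undetected on both arrays of a group, a fold is a lower bound. For each array of the dimmer group it takes the probe's own signal or the lowest detected signal, whichever is higher. The 24 gene lists hold 970 genes, 824 with a probe and 614 tested. The comparison and the lists were chosen with earlier results of these data known, so list counts describe and test nothing. Genes were named by rule: the 10 highest and 10 lowest genes with agreeing probes, the 6 highest and 6 lowest single-probe genes, up to 4 called genes per list, the 6 with the widest disagreement, and Pou5f1, Sox2, Klf4, Myc, Nanog and Xist. Clone-type symbols were left out. Further list members, such as the other called imprinted and epiblast genes, were named after their values were seen. Alternatives were another offset, background, scaling, detection filter, set of arrays, the authors' values, a replicate block, each array left out, and the mean of all kept probes of a gene. The fit was tested on simulated data.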

Additional observations from a re-analysis of the deposited data

How the results depend on the processing

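Under 21 alternatives, 100 of 119 named genes kept both their direction and their side of the call threshold wherever they were tested. The exceptions were Apobec1, Apoe, Clta, Dlat, Dnmt3b, Gata3, H13, Hspa2, Lama1, Mff, Myc, Nanog, Ndufa5, Pfkfb2, Pou5f1, Sox2, Tex11, Vldlr and Zfp330. An offset of 50 gave 878 probes and 604 genes called higher, and 87 agreeing genes, 35 of them higher. Median scaling gave 786 probes and 528 genes called higher and 28 agreeing genes higher, and the authors' processed values gave 131 agreeing genes higher. Requiring detection on all 4 arrays, which tests fewer probes, gave 1912 called probes (848 higher and 1064 lower), 1321 genes (594 higher) and 70 agreeing genes (41 higher and 29 lower). With no filter on detection 48 genes agreed higher. Apart from the filters' smaller or larger number of probes, the cause of these shifts was not tested. Leaving out each array in turn gave 3292 to 3371 called probes (1601 to 1653 higher, 1658 to 1738 lower), 2125 to 2182 genes (1057 to 1080 higher, 1051 to 1103 lower) and 142 to 159 agreeing genes (79 to 90 higher, 63 to 70 lower). Directions turned where the probes of a gene disagree: Mff was 1.16 with detection on all 4 arrays, and with the mean of all kept probes Zfp330 was -2.46, Pou5f1 0.14 and Sox2 -1.73. The replicate numbers did not pair the arrays, as deviations correlated at -0.04 between piPS-2F and fESC and at -0.11 to 0.12 over all group pairs, and the fit with a replicate block called 3295 probes and 2127 genes. Dim probes are read close to background. Of the 1131 dimmest probes 49.2% were called, and the part of background and of the detection filter in that share was not tested. Duplicate arrays cannot show the spread between cultures or lines.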

Other observations

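Some genes that were undetected in piPS-2F were also undetected in its cells of origin. Of the 243 genes called lower and undetected in piPS-2F, 153 were undetected on both pESC-B arrays and 45 were detected on both. Of the 243, 108 (44.4%) were undetected on both pNSC arrays, beside 14.8% of all tested genes. For pESC-B the shares were 62.96% and 6.1%. Only 9 uncalled genes were likewise undetected in piPS-2F and detected in fESC. Of those, 44.4% were undetected in pNSC and 44.4% in pESC-B. All tested genes are an unlike set, and 9 genes are too few to compare with. A group of 24 genes, chosen after their values were seen, was undetected in piPS-2F and pNSC and detected on both arrays of fESC and of pESC-B. Of these 8 were detected on both fNSC arrays and 15 on neither. Trim59 read 8.80 and 8.34 on the fNSC arrays, 4.46 and 4.68 on the pNSC arrays, 4.398 and 4.82 on the piPS-2F arrays and 9.45 and 9.28 on the fESC arrays. Cldn12, a claudin, read 10.43 and 10.27 in fNSC, 4.596 and 5.13 in pNSC, 4.62 and 4.43 in piPS-2F, 8.57 and 8.39 in pESC-B and 8.20 and 8.10 in fESC. Ctsc, the protease cathepsin C, read 8.84 and 8.56 in fNSC, 5.27 and 4.72 in pNSC, 4.74 and 4.34 in piPS-2F, 9.14 and 9.26 in pESC-B and 6.75 and 6.77 in fESC. In all 3 genes the parthenogenetic neural stem cells and the cells reprogrammed from them had no array that detected them, while both arrays of the other 3 populations did.

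In the other direction, 359 genes were called higher in piPS-2F and undetected on both fESC arrays. Of these 48.7% were detected on both pNSC arrays and 66.6% on both pESC-B arrays. Among 355 genes that were not called but passed the detection filter in the same way, the shares were 46.2% and 59.2%, and over all tested genes 82.2% and 89.8%.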
